A study of Mus musculus with 18 samples.

Results

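β-catenin and the proteins that control its breakdown were followed here through the messenger RNA of 10 genes: Ctnnb1, Apc, Axin1, Gsk3a, Gsk3b, Csnk1a1, Btrc, Dvl1, Dvl2 and Dvl3. They were chosen as members of the pathway, but with earlier results of these data known. All their probes were taken by gene name, current or older, which gave 21 of the 41174 probes and 10 of the 28919 genes or unnamed transcripts on the array. The probes are numbered within a gene from the brightest on the tumour arrays downward. Expression was measured on 2-colour oligonucleotide arrays in mammary tissue that was frozen whole. All mice were females of the inbred FVB/N strain. The groups were 2 normal mammary glands with no genotype given in the labels, 2 NIC tumour pools and 5 single tumours from mice with an ErbB2 knock-in (KI). Each NIC pool held equal amounts of RNA from 5 tumours, and the labels do not spell out the abbreviation. The labels do not give mouse ages, the promoter behind the tumour alleles or the cells in which they act. Each RNA was hybridised against a common mouse reference on a pair of dye-swapped arrays. A level below is the mean log2 ratio of sample over reference of those 2 arrays, so 1 unit is a doubling, and levels of different probes are not compared with each other.

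β-catenin, the product of Ctnnb1, links cadherins to the actin cytoskeleton at cell junctions and, in the nucleus, activates Wnt target genes together with TCF/LEF factors. Without a Wnt signal, cytoplasmic β-catenin is held by the scaffolds Apc and Axin1, phosphorylated by casein kinase 1α (Csnk1a1) and then by glycogen synthase kinase 3 (Gsk3a and Gsk3b), and marked for the proteasome by a ubiquitin ligase that recognises it through β-TrCP (Btrc). On a Wnt signal the Dishevelled proteins (Dvl1, Dvl2, Dvl3) recruit Axin1 to the receptor and the complex stops working. Most of this control acts on proteins, which these arrays do not measure. The series title places the arrays in a study of β-catenin signalling in ErbB2-driven mammary tumours.

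As a check of the labels, the brightest Erbb2 probe read −1.08 and −1.29 in the normal glands, 0.39 and 0.81 in NIC and 0.30 to 1.01 over the KI tumours. Another Erbb2 probe read −0.06 and −0.07 in the normal glands, 1.82 and 1.68 in NIC and 2.04 to 4.22 over the KI tumours. The remaining Erbb2 probe hardly separated the groups, at −0.34 and 0.09, then 0.22 and 0.31, then 0.12 to 0.34. Across all probes the normal glands correlated with each other at 0.871, the NIC pools at 0.929 and the KI tumours at 0.704 to 0.886. Luminal epithelial markers (Krt8, Krt18, Epcam and 7 others) had median levels of 0.26 to 0.34 in the normal glands, 2.98 to 3.21 in the NIC pools and 2.60 to 3.05 in the KI tumours. The 2 arrays of normal gland 2 disagreed more than any other dye pair: they differed by over 1 log2 unit at 13.8% of all probes, against 1.45% to 8.78% in the other 8 RNA samples. The normal and NIC values also lie in a table apart from the KI values and on another platform record, so in any comparison that involves KI the group, the table and the platform record cannot be told apart.

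Transcripts of the destruction complex were higher in tumours than in normal gland at a core of probes, led by Axin1 and Gsk3b, while Dvl3 was lower. In the NIC pools, 6 of the 21 member probes rose (28.6%, against 9.82% of all probes) and 0 fell by limma (against 8.62% of all probes). At an unadjusted p under 0.05 there were 12 member probes (57.1%, against 39.1% of all probes). Of these 11 were higher and 1 lower, where 19.2% of all probes were higher and 19.9% lower. The 6 belong to Axin1, Gsk3b, Ctnnb1, Csnk1a1 and Dvl2. In the KI tumours, 12 member probes rose (57.1%, against 20.1% of all probes) and 1 fell (4.76%, against 22.2%). A probe was called when its adjusted p was under 0.05 in limma with Benjamini-Hochberg adjustment over all probes. The median difference over the 21 probes was 0.67 in NIC against normal and 0.84 in KI against normal, where the medians over all probes were −0.02 and 0.01. Counting each gene once by its brightest probe, 3 of 10 genes rose in NIC and 6 of 10 in KI, with Dvl3 alone falling in KI. Over all 28919 genes by the same rule, 8.46% rose and 9.51% fell in NIC, and 17.7% rose and 24.8% fell in KI. Both tumour groups were set against the same 2 normal glands, and probes of a gene are not independent of each other. The NIC calls rest on 4 RNA samples. No NIC call held with either NIC pool left out, at member probes or elsewhere on the array. The differences of the 6 called probes were then 0.93 to 3.26 without the first pool and 1.01 to 3.34 without the second. With the spread estimated over all 9 RNA samples instead, 11 member probes were called in NIC, 10 higher and 1 lower, where 36.6% of all probes were called.

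Groups that do not overlap were common on these arrays. The NIC and normal values did not overlap at 17 of the 21 member probes (81%), where 71.5% of all probes did not. The KI and normal values did not overlap at 14 (66.7%), where 54.7% of all probes did not. Such separation is therefore near the background of the arrays and is given below as a description.

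**Figure D1:**
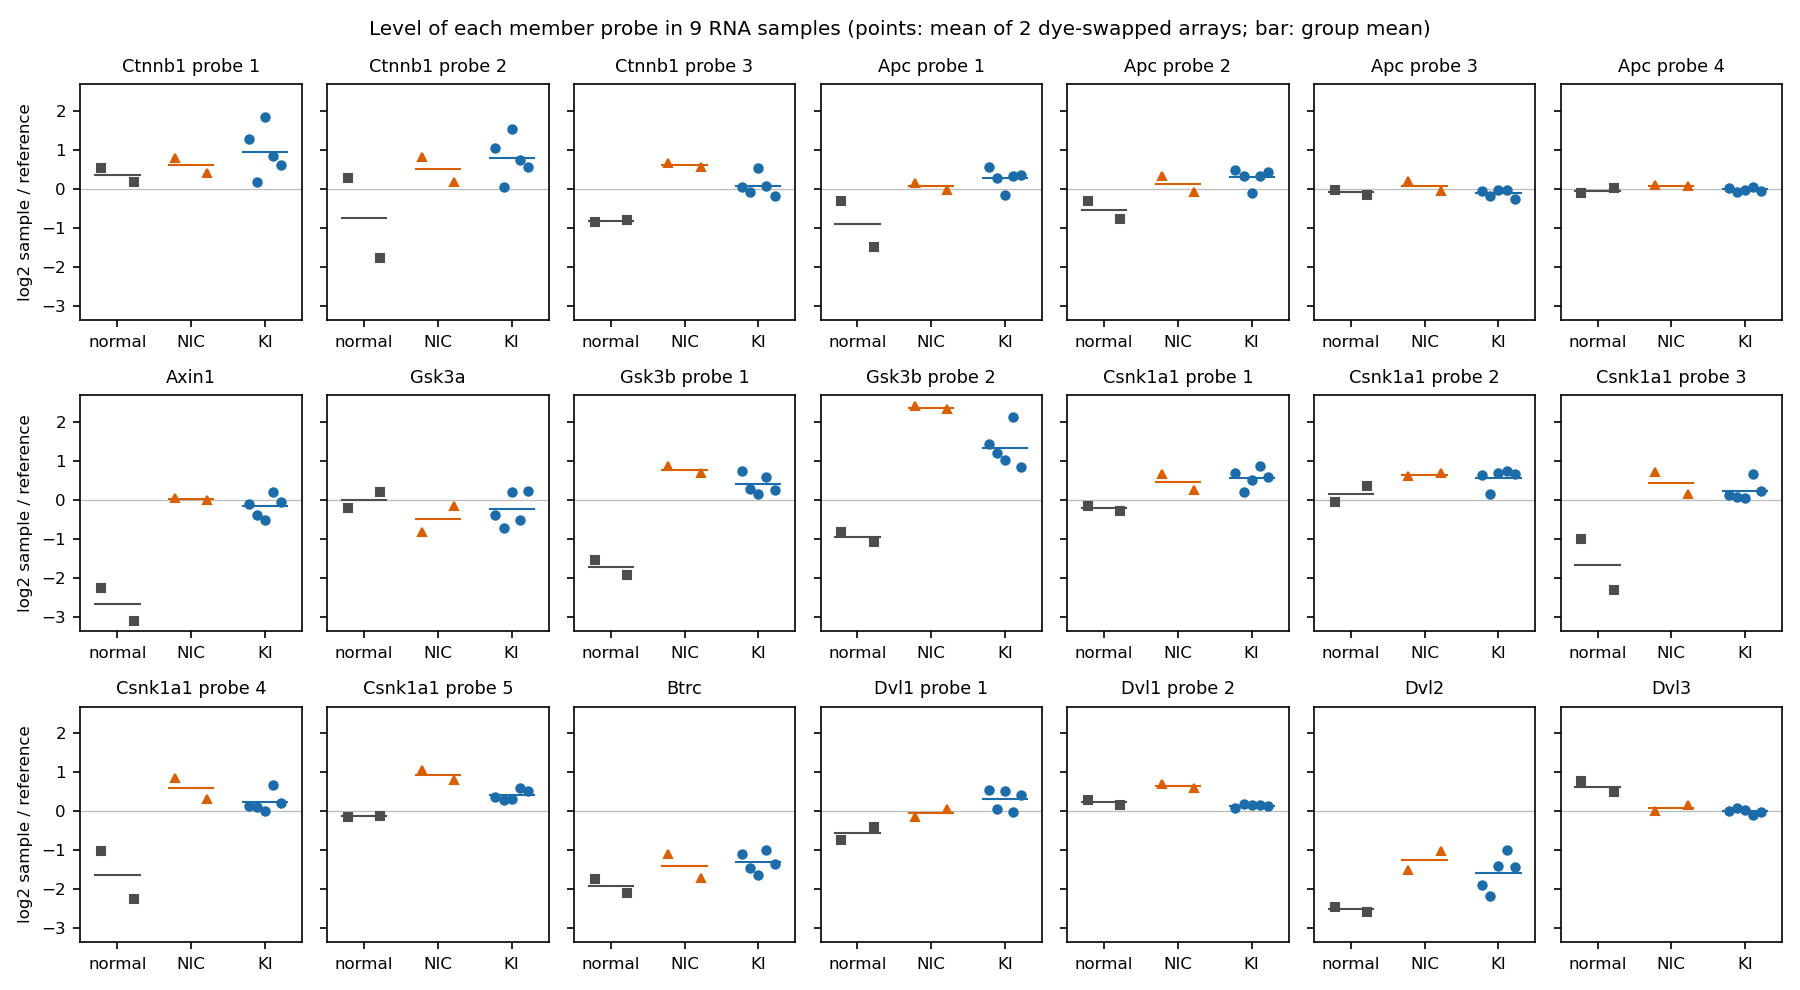
Level of each of the 21 member probes (y axis, log2 sample over reference) in 2 normal glands, 2 NIC pools and 5 KI tumours; a point is an RNA sample, the mean of its 2 dye-swapped arrays, and a bar is the group mean. Axin1 and both Gsk3b probes lay lower in the normal glands than in every tumour sample, and Dvl3 lay higher, at 0.48 and 0.76 against −0.11 to 0.14.

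Of the 3 Ctnnb1 probes, probe 3 alone was called. Probe 1 read 0.53 and 0.18 in the normal glands, 0.79 and 0.42 in the NIC pools and 1.28, 0.17, 1.84, 0.85 and 0.60 in KI tumours 1 to 5. The normal values fall inside the range of the KI tumours, and the NIC values overlap those of the normal glands. The difference was 0.25 ± 0.21 (SE, 95% interval −0.37 to 0.86, adjusted p = 0.449, limma) in NIC and 0.59 ± 0.41 (−0.37 to 1.55, adjusted p = 0.283) in KI, so a rise of 1 log2 unit lies above the NIC interval but within the KI interval.

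Probe 2 of Ctnnb1 read 0.28 and −1.76 in the normal glands, 0.81 and 0.19 in the NIC pools and 1.05, 0.06, 1.52, 0.74 and 0.56 in the KI tumours. The low value of normal gland 2 is the mean of −0.16 on the array with the sample in Cy5 and −3.35 on the one with the sample in Cy3. That gap of 3.18 was reached by 0.107% of all probes in that gland. The differences of 1.24 ± 0.80 in NIC (adjusted p = 0.334, limma) and 1.52 ± 0.57 in KI (adjusted p = 0.0669) were not called. They depended on which gland was kept: without normal gland 2 they were 0.22 and 0.50 (adjusted p = 0.703 and 0.50), and without normal gland 1 they were 2.26 and 2.54 (adjusted p = 0.0697 and 0.0127), a call in KI.

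Probe 3 was the Ctnnb1 probe that separated the groups. It read −0.84 and −0.79 in the normal glands, 0.65 and 0.55 in the NIC pools and 0.06, −0.08, 0.53, 0.08 and −0.19 in the KI tumours, with no overlap between normal gland and either tumour group. It rose by 1.41 ± 0.10 in NIC (2.67-fold, adjusted p = 0.0124, limma) and by 0.89 ± 0.18 in KI (1.86-fold, adjusted p = 0.00602). With all arrays scaled to 1 spread the KI difference was 0.63 (adjusted p = 0.0506). Probe 3 was designed on a cDNA clone and probes 1 and 2 on the reference transcript, per the scanner files. Where on the transcript each lies is not given there.

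Of the scaffolds, Axin1, the component that limits assembly of the complex, showed the clearest rise. Its single probe read −2.25 and −3.09 in the normal glands, 0.04 and −0.01 in the NIC pools and −0.11, −0.38, −0.50, 0.21 and −0.04 in the KI tumours. All 7 tumour samples lay near the reference and above both glands. Axin1 rose by 2.69 ± 0.33 in NIC (6.43-fold, adjusted p = 0.0242, limma) and by 2.50 ± 0.25 in KI (5.66-fold, adjusted p = 0.000491). Only 2.80% and 2.26% of all probes differed by more in these comparisons. In normal gland 2 its arrays read −2.52 and −3.65. Without the Cy5 array of that gland, and likewise on the Cy3 arrays alone, the NIC difference was larger but not called (2.97, adjusted p = 0.0659, and 3.14, adjusted p = 0.0657).

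Apc, the tumour suppressor that brings β-catenin to the complex, moved less and not at every probe. Probe 1 read −0.32 and −1.49 in the normal glands, 0.15 and −0.02 in the NIC pools and 0.56, 0.29, −0.16, 0.33 and 0.37 in the KI tumours. Probe 2 read −0.32 and −0.76, then 0.34 and −0.08, then 0.49, 0.34, −0.11, 0.34 and 0.42. At both probes the normal glands lay below every tumour sample. The KI differences were 1.19 ± 0.31 (adjusted p = 0.0183, limma) and 0.84 ± 0.20 (adjusted p = 0.0136). Without normal gland 2 they were 0.60 (adjusted p = 0.111) and 0.61 (adjusted p = 0.109). No Apc probe was called in NIC, where differences ran from 0.13 to 0.97. Probes 3 and 4 stayed between −0.25 and 0.21 in every sample. Probe 4 was well above background in the sample channel on 5 of the 10 KI arrays and in the reference channel on 2, whereas the other 20 member probes were so on all 10.

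The kinase Gsk3b rose at both of its probes in both tumour types, and its paralogue Gsk3a was called in neither. Gsk3b probe 1 read −1.52 and −1.91 in the normal glands, 0.87 and 0.68 in the NIC pools and 0.74, 0.29, 0.16, 0.60 and 0.26 in the KI tumours. Probe 2 read −0.81 and −1.07, then 2.40 and 2.32, then 1.43, 1.19, 1.02, 2.12 and 0.84. Neither probe showed any overlap between glands and tumours. In NIC the rises were 2.49 ± 0.18 (5.62-fold, adjusted p = 0.0130, limma) and 3.30 ± 0.13 (9.85-fold, adjusted p = 0.00936). In KI they were 2.13 ± 0.18 (4.37-fold, adjusted p = 0.000286) and 2.26 ± 0.31 (4.80-fold, adjusted p = 0.0015). The KI calls at both probes held under all 22 and 20 alternatives run for them.

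Gsk3a was measured by a probe that the scanner files name after a cDNA clone, matched through an older symbol. It read −0.21 and 0.21 in the normal glands, −0.82 and −0.16 in the NIC pools and −0.38, −0.73, 0.21, −0.51 and 0.23 in the KI tumours. The 3 groups overlapped. The differences of −0.50 ± 0.31 in NIC (95% interval −1.40 to 0.40) and −0.24 ± 0.32 in KI (−0.99 to 0.51) were not called (adjusted p = 0.316 and 0.584, limma), and both intervals lie below the rise of either Gsk3b probe. Whether the paralogues differ in their change was not tested, since their probes are separate features.

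Csnk1a1, which places the first phosphate on β-catenin, had 5 probes that all read higher in tumours but by unequal amounts. Probe 3 read −1.01 and −2.30 in the normal glands, 0.73 and 0.15 in the NIC pools and 0.12, 0.08, 0.06, 0.68 and 0.22 in the KI tumours. Probe 4 followed the same order, with −1.03 and −2.25, then 0.84 and 0.31, then 0.13, 0.09, 0.00, 0.66 and 0.20. These probes rose by 1.88 ± 0.35 and 1.86 ± 0.33 in KI (adjusted p = 0.00466 and 0.00407, limma). Without normal gland 2, whose value is the lower at both, the KI differences were 1.24 and 1.25, and the calls held. In NIC they differed by 2.09 ± 0.54 and 2.22 ± 0.51 without a call (adjusted p = 0.0797 and 0.0652).

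The remaining Csnk1a1 probes moved by less. Probe 1 rose by 0.78 ± 0.18 and probe 5 by 0.55 ± 0.11 in KI (adjusted p = 0.0108 and 0.00611, limma), and probe 5 by 1.06 ± 0.13 in NIC (adjusted p = 0.0242). The KI call of probe 1 was lost without normal gland 2 (0.71, adjusted p = 0.0708), and the NIC call of probe 5 without either gland (adjusted p = 0.0705 and 0.0717). Probe 5 read −0.14 in both normal glands, 1.04 and 0.79 in NIC and 0.27 to 0.58 over the KI tumours. Probe 2 read −0.06 and 0.36, then 0.61 and 0.68, then 0.15 to 0.73, and was called in neither comparison. Probes 1, 3 and 4 were designed on the same reference transcript, yet their KI differences ran from 0.78 to 1.88.

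Btrc, the receptor subunit that hands phosphorylated β-catenin to the ubiquitin ligase, was not called in any comparison. It read −1.73 and −2.10 in the normal glands, −1.10 and −1.70 in the NIC pools and −1.10, −1.46, −1.63, −0.99 and −1.36 in the KI tumours. The KI difference was 0.61 ± 0.23 (adjusted p = 0.0651, limma), but −0.21 with all arrays scaled to 1 spread and −0.18 after quantile normalization, so its direction depends on the scaling. The NIC difference was 0.51 ± 0.28 (adjusted p = 0.266) and likewise −0.19 when scaled to 1 spread.

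The 3 Dishevelled genes gave calls in different directions. Dvl2 read −2.45 and −2.57 in the normal glands, −1.50 and −1.02 in the NIC pools and −1.89, −2.16, −1.41, −1.01 and −1.44 in the KI tumours. It rose by 1.25 ± 0.21 in NIC (adjusted p = 0.0392, limma) and by 0.93 ± 0.30 in KI (adjusted p = 0.0402). The KI direction turned to −0.14 (adjusted p = 0.781) with all arrays scaled to 1 spread, and it was 0.15 after quantile normalization (adjusted p = 0.690). The NIC difference kept its direction under both, at 0.35 and 0.84, without a call. The NIC call was also lost without either normal gland (1.19 and 1.31), and the KI call without either normal gland or without KI tumour 3, 4 or 5 (0.79 to 0.99).

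Dvl3 was the member that fell. It read 0.76 and 0.48 in the normal glands, 0.00 and 0.14 in the NIC pools and −0.01, 0.09, 0.03, −0.11 and −0.03 in the KI tumours, and no tumour value reached a normal one. It fell by 0.62 ± 0.09 in KI (1.54-fold lower, adjusted p = 0.00204, limma), a call held under all 22 alternatives. In NIC the difference was −0.55 ± 0.15 without a call (95% interval −0.98 to −0.12, adjusted p = 0.0860).

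Dvl1 gave opposite signs at its probes in KI. Probe 1 read −0.75 and −0.40 in the normal glands, −0.15 and 0.04 in the NIC pools and 0.54, 0.06, 0.50, −0.03 and 0.41 in the KI tumours, a rise of 0.87 ± 0.19 in KI (adjusted p = 0.00917, limma) that was not called without normal gland 1 (0.69, adjusted p = 0.0731). Probe 2 read 0.29 and 0.16, then 0.68 and 0.58, then 0.07, 0.17, 0.15, 0.16 and 0.12, a difference of −0.09 ± 0.06 in KI (adjusted p = 0.276). Both probes were designed on the same reference transcript. In NIC neither was called, with differences of 0.52 and 0.41.

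**Figure D2:**
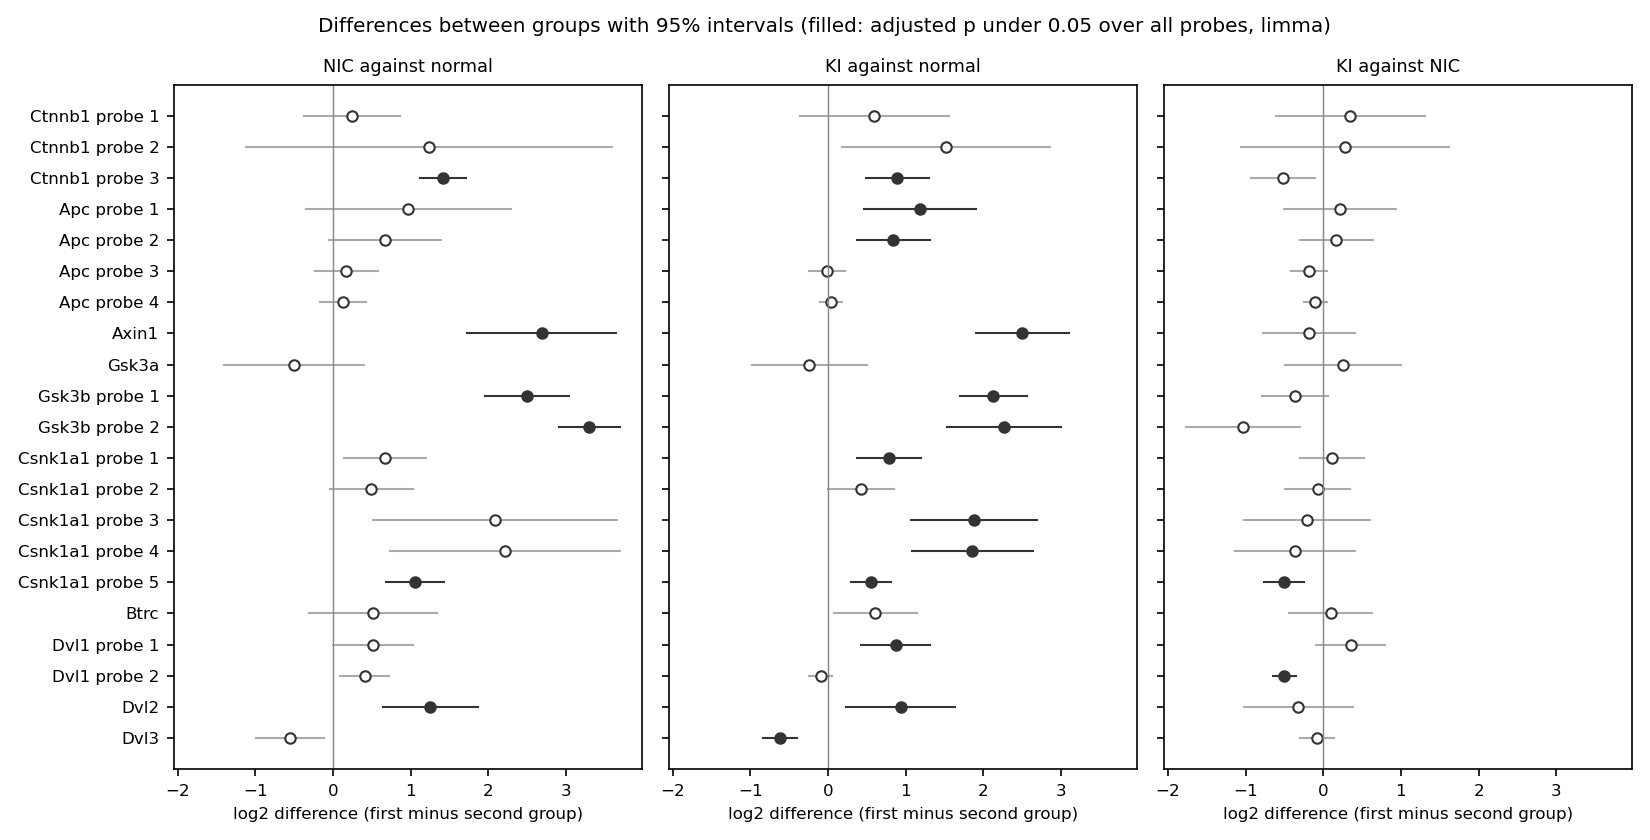
Difference between group means at each member probe (x axis, log2, first group minus second) with its 95% interval, for NIC against normal, KI against normal and KI against NIC; filled points have an adjusted p under 0.05 over all probes. Axin1, Gsk3b, Ctnnb1 probe 3, Csnk1a1 probe 5 and Dvl2 were called in both comparisons with normal gland, although the KI sign of Dvl2 turned when arrays were scaled to 1 spread, and 2 probes were called between the tumour types.

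Sequence upstream of the genes was read from RefSeq (assembly GRCm38.p6), whose table held 6 of the 10 members. It is shown for the kinase paralogues, of which Gsk3b rose and Gsk3a was not called, and for Dvl2 and Dvl3, called in opposite directions in KI, where the sign of Dvl2 turned when arrays were scaled to 1 spread. The stretches end at the base before the gene and are written 5′ to 3′ on the gene's strand: Gsk3b at chr16:38088751-38089000 (plus), Gsk3a at chr7:25237852-25238101 (minus), Dvl2 at chr11:70000342-70000591 (plus) and Dvl3 at chr16:20516736-20516948 (plus). Capitals mark matches, on either strand, to a TCF/LEF core (TCAAAG), an ETS core (CCGGAAG) or an E-box (CACGTG, which is its own reverse complement).
Gsk3b: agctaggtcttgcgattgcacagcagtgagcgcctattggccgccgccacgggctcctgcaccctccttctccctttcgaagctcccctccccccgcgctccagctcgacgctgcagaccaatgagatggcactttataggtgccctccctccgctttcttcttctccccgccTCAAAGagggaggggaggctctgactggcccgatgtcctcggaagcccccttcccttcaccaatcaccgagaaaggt
Gsk3a: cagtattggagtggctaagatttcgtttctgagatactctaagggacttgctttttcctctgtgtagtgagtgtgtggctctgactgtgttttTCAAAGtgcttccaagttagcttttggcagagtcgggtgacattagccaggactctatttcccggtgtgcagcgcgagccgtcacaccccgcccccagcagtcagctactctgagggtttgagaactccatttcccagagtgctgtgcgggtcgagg
Dvl2: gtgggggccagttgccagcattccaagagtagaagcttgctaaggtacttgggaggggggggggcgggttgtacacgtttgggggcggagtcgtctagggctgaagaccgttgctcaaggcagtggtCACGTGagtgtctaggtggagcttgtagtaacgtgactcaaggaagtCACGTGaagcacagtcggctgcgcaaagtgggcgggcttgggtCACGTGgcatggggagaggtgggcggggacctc
Dvl3: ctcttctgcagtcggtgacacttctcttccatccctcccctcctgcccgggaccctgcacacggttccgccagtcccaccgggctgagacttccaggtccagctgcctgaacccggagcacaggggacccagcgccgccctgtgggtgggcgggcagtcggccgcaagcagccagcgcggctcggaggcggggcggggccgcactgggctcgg
The TCF/LEF core occurred at 1 place upstream of Gsk3b and at 1 place upstream of Gsk3a. It occurs in 13.8% of the 32851 RefSeq windows of 250 bases. The Dvl2 window held 3 E-boxes, a motif found at least once in 6.02% of all windows. The window of Dvl3, of 213 bases, held none of these motifs, and no ETS core, found in 6.91% of all windows, lay in any of the windows shown. A match or its absence describes these letters alone.

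Few member probes were called between KI tumours and NIC pools. Of the 21 probes, 0 were higher by limma (against 3.02% of all probes) and 2 lower (9.52%, against 3.97%). At an unadjusted p under 0.05 there were 4, all lower (19.0%, where 11.9% of all probes were lower and 11.2% higher). The KI and NIC values did not overlap at 5 of the 21 probes (23.8%), where 31.9% of all probes did not. The calls were Dvl1 probe 2, at −0.50 ± 0.06 (adjusted p = 0.00681), and Csnk1a1 probe 5, at −0.50 ± 0.11 (adjusted p = 0.0374). The other Dvl1 probe read 0.35 ± 0.19 higher, and the other 4 Csnk1a1 probes differed by −0.36 to 0.11. Without the first NIC pool neither was called (adjusted p = 0.0581 and 0.227), and of 18 alternatives the first held in 16 and the second in 6. Gsk3b probe 2 had the largest member difference, −1.04 ± 0.31, with every KI tumour below both pools, but it was not called (adjusted p = 0.0980). Over all probes 1245 were called higher and 1633 lower, and 473 and 1088 after quantile normalization.

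The low values of normal gland 2 enter all differences from normal gland. Of its 21 member probes, 6 differed by over 1 log2 unit between its arrays: Ctnnb1 probe 2, Apc probe 1, Axin1, Gsk3b probe 1 and Csnk1a1 probes 3 and 4. At all 6 the array with the sample in Cy3 read lower. With that array left out, an alternative added after the data were seen, 9 member probes were called in NIC and 13 in KI. Of all probes, 19.6% and 41.2% were called there. With its Cy5 partner left out instead, 4 and 13 were called, where 8.25% and 39.9% of all probes were. Without normal gland 2 altogether, the KI means of Axin1, both Gsk3b probes and Csnk1a1 probes 3 and 4 lay 1.24 to 2.13 above normal gland 1. No member probe differed by over 1 log2 unit between the arrays of normal gland 1, the second NIC pool or any KI tumour.

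**Figure D3:**
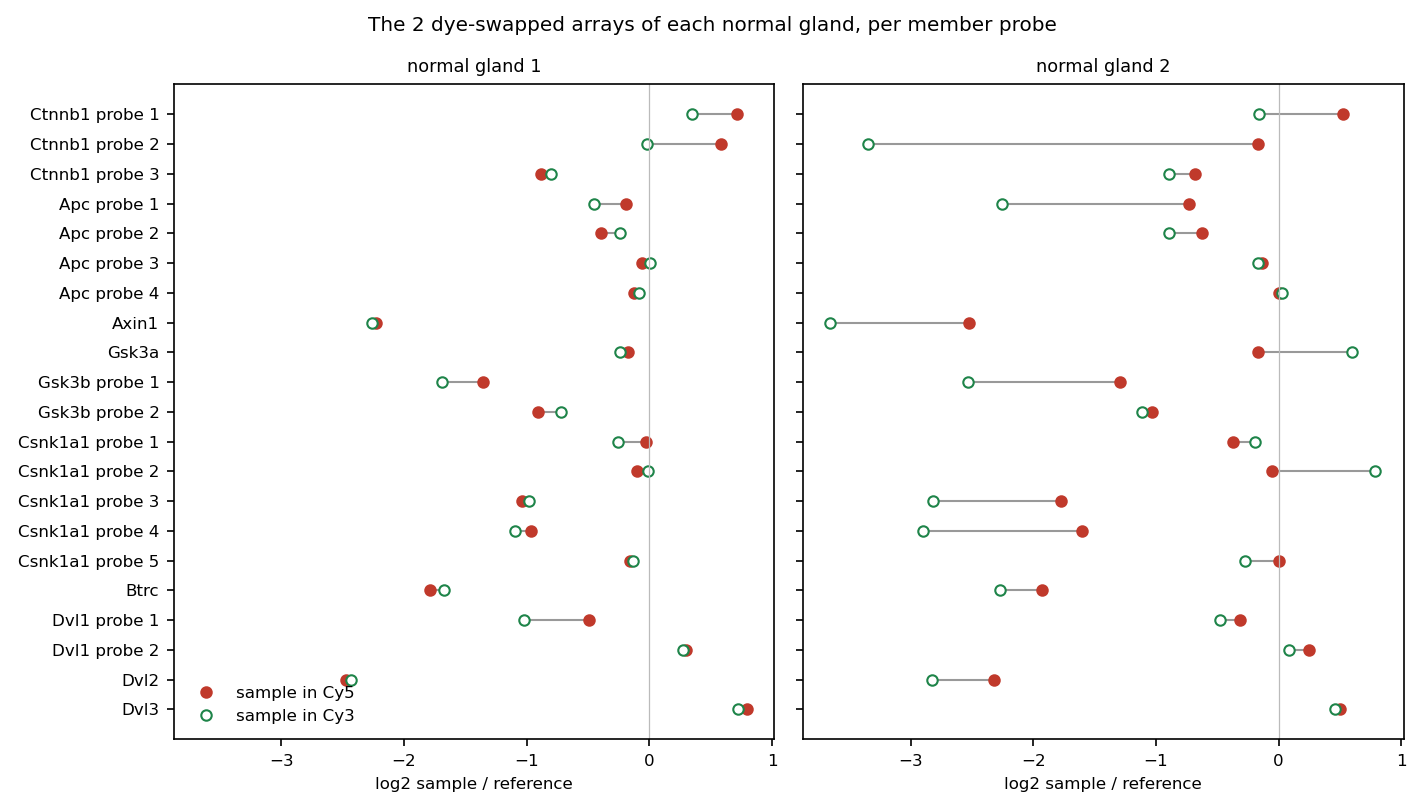
The 2 arrays of each normal gland at every member probe (x axis, log2 sample over reference): filled points have the sample in Cy5, open points in Cy3, and a line joins the pair. In normal gland 1 all pairs lay within 0.60, while in normal gland 2 the pair of Ctnnb1 probe 2 lay 3.18 apart.

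Among the single KI tumours, Ctnnb1 varied widely at probes 1 and 2. The SD of Ctnnb1 probe 1 over the 5 tumours was 0.64, a value exceeded by 6.67% of all probes, and that of probe 2 was 0.55. At probe 3 it was 0.27, exceeded by 29.7% of all probes. The median SD over member probes was 0.26, against 0.16 over all probes. Probes 1 and 2 placed the tumours in the same order: tumour 3 was highest, then 1, 4, 5 and 2. Probe 3 also read highest in tumour 3, followed by tumours 4, 1, 2 and 5. Each dye alone gave tumour 3 the highest and tumour 2 the lowest value at probes 1 and 2. In tumour 3 the arrays of probe 1 read 1.93 and 1.75, and in tumour 2 they read 0.32 and 0.02. The spot of probe 1 was marked as an outlier by the scanner software on 1 array, the Cy5 array of tumour 1, where it read 1.35 against 1.20 on its partner.

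The member probes did not share an order of the tumours. Of the 21, 11 probes of 6 genes were highest in tumour 4 (52.4%, against 19.1% of all probes), where Ctnnb1 probes 1 and 2 held the middle rank. Tumour 2 was lowest at 8 probes of 5 genes (38.1%, against 25.8% of all probes): Ctnnb1 probes 1 and 2, Apc probe 4, Gsk3a, Csnk1a1 probes 1, 2 and 5, and Dvl2. Tumour 3 was lowest at 7 probes, also of 5 genes (33.3%, against 16.7% of all probes): Apc probes 1 and 2, Axin1, Gsk3b probe 1, Csnk1a1 probes 3 and 4, and Btrc. Axin1 was highest in tumour 4 at 0.21 and lowest in tumour 3 at −0.50. Gsk3b probe 2 reached 2.12 in tumour 4 and 0.84 to 1.43 in the others. Btrc read −0.99 in tumour 4 and −1.63 in tumour 3. Apc probes 1 and 2 were lowest in tumour 3, where all 3 Ctnnb1 probes were highest, at −0.16 and −0.11.

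Axin2, a paralogue of Axin1 and a widely used transcriptional readout of β-catenin, was lowest in the tumours that read highest at Ctnnb1 probes 1 and 2. It read −1.61 and −0.53 in KI tumours 1 and 3, where Ctnnb1 probe 1 read 1.28 and 1.84. In tumours 2, 4 and 5 it read 1.37, 2.52 and 2.11, where Ctnnb1 probe 1 read 0.17, 0.85 and 0.60. Ctnnb1 probe 3 ordered them otherwise: after tumour 3 at 0.53 came tumour 4 at 0.08, where Axin2 was highest, and tumour 1 at 0.06. Axin2 read 1.53 and 1.81 in the normal glands and −3.05 and −2.97 in the NIC pools. The 10 myeloid markers moved as well: their median level was 2.35 and 2.20 in tumours 1 and 3, 2.08 in tumour 5, 1.50 in tumour 4 and 1.03 in tumour 2. The 7 skeletal muscle markers had a median level of 0.74 in tumour 2, where Ctnnb1 probes 1 and 2 were lowest, and −2.05 to −1.31 in the other KI tumours. Other marker lists varied too. Fibroblast markers ran from −1.38 in tumour 2 to 0.51 in tumour 3, and endothelial markers from 0.73 in tumour 2 to 2.25 in tumour 5. Basal epithelial markers ran from −0.09 in tumour 1 to 0.87 in tumour 5. The part of any of these marker lists in the values of Ctnnb1 and Axin2 was not tested.

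**Figure D4:**
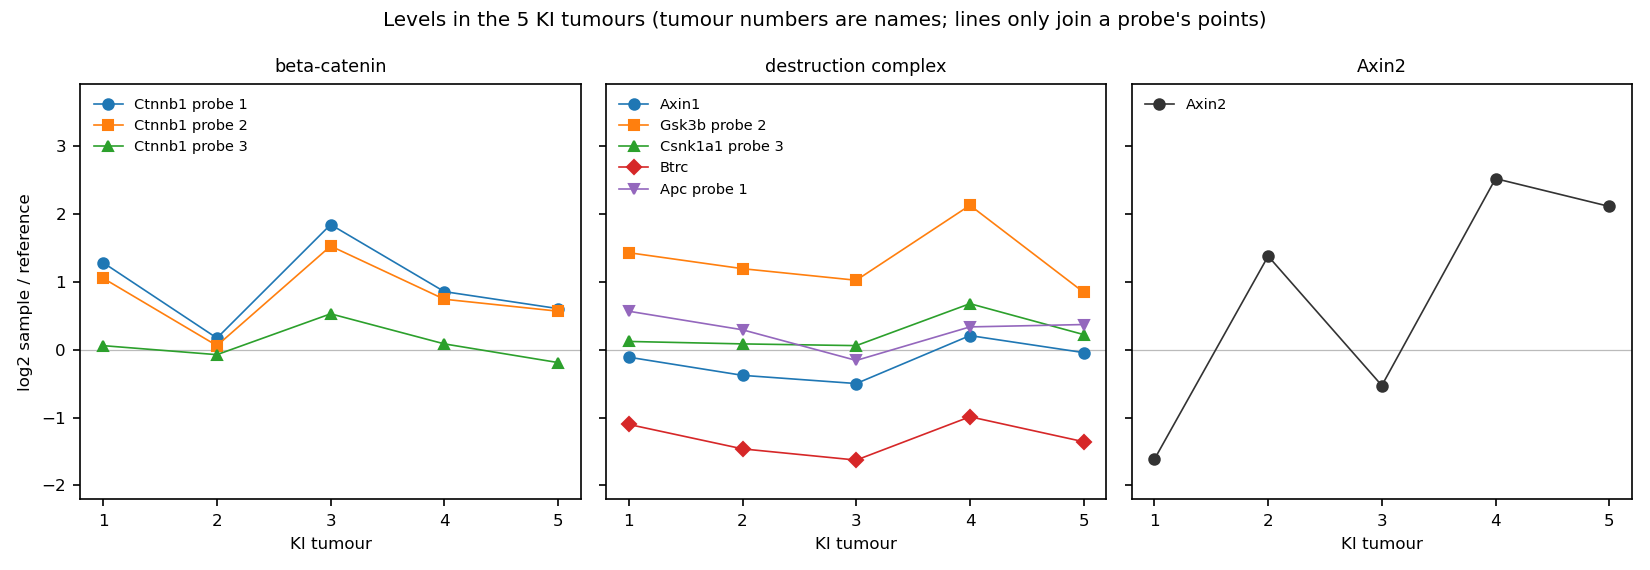
Levels (y axis, log2 sample over reference) in KI tumours 1 to 5 of the 3 Ctnnb1 probes, of 5 probes of the destruction complex and of Axin2; the tumour numbers are names, and lines only join the points of a probe. Ctnnb1 peaked in tumour 3, Axin1, Gsk3b probe 2, Csnk1a1 probe 3 and Btrc in tumour 4, and Axin2 was low in tumours 1 and 3.

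The profiles nearest to Ctnnb1 probe 1 over the 9 RNA samples, each centred on its mean, were those of Dnajc10, Grn, Rbm17, Mgam and Samd9l. Their root mean square differences from it were 0.21, 0.26, 0.26, 0.27 and 0.27 log2 units, among 5545 genes that varied at least as much. Grn encodes progranulin, and like Ctnnb1 it was highest in KI tumours 1 and 3, at 1.34 and 1.29, against −0.21 to 0.24 in the other tumours. Dnajc10, a chaperone of the endoplasmic reticulum, was highest in tumour 3 at 0.80.

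Other regulators of β-catenin turnover were called in both directions. Of 41 measured genes of that list, each by its brightest probe, 5 rose and 3 fell in NIC, and 13 rose and 3 fell in KI. These are 12.2% and 7.32% of the list in NIC, against 8.46% and 9.51% of all genes, and 31.7% and 7.32% in KI, against 17.7% and 24.8%. Csnk1e, a casein kinase that acts with Dishevelled, rose by 2.06 ± 0.21 in NIC and by 2.06 ± 0.37 in KI (adjusted p = 0.0187 and 0.00403, limma). Ppp2r5a, a regulatory subunit of the phosphatase PP2A, fell by 3.19 ± 0.12 in NIC (adjusted p = 0.00936, limma). In KI it fell by 3.38 ± 0.17 (adjusted p = 4.09e-05), and its 3 probes shared that sign. Axin2 fell by 4.68 ± 0.14 in NIC (adjusted p = 0.00936). Also called in NIC were Amer1, which anchors Apc at the membrane, and the ubiquitin ligase Siah2, higher by 1.48 and 1.37, and Frat1, a Gsk3-binding protein, with differences over its 3 probes of −1.53 to 0.07. In KI, Nkd2, which binds Dishevelled, rose by 2.83, and Tnks, whose product marks Axin for breakdown, by 1.56, with its 3 probes between 0.10 and 1.56. Ppp2r1b and Cxxc4 differed by −1.11 and −1.03 in KI and were called at their brightest probes. The 3 probes of Ppp2r1b ran from −1.11 to −0.25, and the other Cxxc4 probe differed by 0.036.

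Over all genes, the shares to set beside the lists below are 8.46% higher and 9.51% lower in NIC, and 17.7% and 24.8% in KI. Of 27 nuclear partners, 6 rose and 1 fell in NIC and 10 rose and 2 fell in KI (22.2% and 3.70% of the list, then 37.0% and 7.41%). Tbl1x, of the corepressor exchange machinery, rose by 2.06 and 1.75. Of 15 junction partners, 5 rose and 1 fell in NIC and 7 rose in KI (33.3% and 6.67%, then 46.7% higher). Among them Ctnnd1, the p120 catenin, rose by 2.62 and 2.94 at its brightest probe, while its other probe differed by 0.035 and 0.36. Jup, the β-catenin relative plakoglobin, rose by 2.33 in KI. Of 29 Wnt target genes, 7 rose and 6 fell in NIC (24.1% and 20.7%), with Id2 4.39 higher. Apcdd1, an inhibitor of Wnt signalling at the cell surface, fell by 5.21 there. In KI 9 rose and 1 fell (31.0% and 3.45%), with Myc 3.36 higher at its brightest probe and 0.56 at its lowest. The median differences of these 4 lists lay between 0.03 and 0.62 over both comparisons. Between the tumour types 1 turnover gene rose and 1 fell (Frat1 and Amer1, 2.44% of the list each way). There 2 nuclear partners rose and 1 fell (7.41% and 3.70%), and 2 target genes rose (6.90%). The lists share genes, Axin2 among them, and Tcf7 is counted as a rise in both the nuclear partners and the target genes. Of all genes, 3.10% rose and 3.43% fell between the tumour types.

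The tissue mix moved with every comparison against normal gland. Adipocyte markers had median levels of 3.57 to 3.85 in the normal glands, −0.01 to 0.31 in the NIC pools and −0.02 to 0.39 in the KI tumours, and 9 of the 12 fell in each tumour group. Of 10 proliferation markers, 9 rose in NIC and 10 in KI. Fibroblast markers read 1.61 to 1.73 in the glands, −1.72 to −0.42 in the pools and −1.38 to 0.51 in the KI tumours. In whole tissue, fewer cells of a type and less RNA per cell cannot be told apart, and the part of the tissue mix in the differences of Axin1, Gsk3b and the other members was not tested.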

How the data were processed

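Members and lists were chosen with earlier results of these data known. Every probe of each member gene is reported. From the list of turnover regulators, up to 3 genes with the largest called rise or fall per comparison were named, and up to 2 from each other list. Genes with the profile nearest to Ctnnb1 were taken by root mean square difference.

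Each of the 18 arrays has a column in the authors' deposited tables, as a log2 ratio of sample to reference. RMA is listed in the submitters' processing notes without a role. How else the tables were made is not given in the sources used. Scanner files of the 10 KI arrays, deposited by the authors, hold spot intensities and the software's log10 ratio (Cy5 over Cy3). KI columns followed their own scanner intensities, background-corrected and normalised here by loess, at r of 0.982 to 0.988 once turned to sample over reference. With the software's own log ratio r was 0.941 to 0.954. Scale and direction of the normal and NIC columns were taken by analogy: bright control spots were below 0 in every Cy5 column and above 0 in every Cy3 column of both tables. Column medians were −0.01 to 0.03. Label fields gave the dyes. The protocol texts of 7 KI arrays state them the other way round. Interquartile ranges were 0.42 to 0.56 in KI, 0.51 to 0.56 in NIC and 0.76 to 0.97 in the normal glands. Probes were read by spot number from the KI scanner files for both tables.

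The 2256 control spots were left out and 41174 probes were tested with limma 3.58.1 in R 4.3.3 (lmFit, eBayes, two-sided, Benjamini-Hochberg). The dye pair of each RNA was averaged into 1 replicate. NIC against normal was fitted on its 4 RNA samples, and both KI contrasts on all 9. A pool averages over 5 tumours and was assumed in these fits to vary like a single tumour, which was not tested. The spread between NIC pools is therefore not that between single NIC tumours. Labels do not say whether samples share litters, so the p-values reflect the spread of these samples alone. The number of arrays limits the precision. The scripts were tested on simulated data. Alternatives were other scalings, dyes, probe rules, KI scanner values and leaving out each RNA sample.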

Additional observations from a re-analysis of the deposited data

Results flagged for a closer look

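Dixon's ratio, the gap of the extreme tumour to its neighbour over the range of the 5 KI tumours, was above its 95% critical value at 3 of the 21 member probes. Chance flags about 1 in 20 groups if the values are independent and normally distributed. The share flagged over all probes was not computed, and probes of a gene are not independent of each other. At Apc probe 2 the ratio was 0.744, with KI tumour 3 at −0.11 and the next tumour at 0.34. At Csnk1a1 probe 2 it was 0.827, with KI tumour 2 at 0.15 and the next at 0.63. At Csnk1a1 probe 3 it was 0.737, with KI tumour 4 at 0.68 and the next at 0.22.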

How the results depend on the processing

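The call of Axin1, Gsk3b probes 1 and 2, Csnk1a1 probes 3, 4 and 5 and Dvl3 in KI against normal held under every alternative run for each. No paired analysis was possible because the groups share no replicate numbers in the labels. With 2 normal glands and 2 NIC pools, few samples limit every comparison.

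The main counts over all probes were 7594 (NIC against normal), 17391 (KI against normal) and 2878 (KI against NIC), and over member probes 6, 13 and 2. With the RNA sample as a random block they were 15384 in NIC against normal and 6073 in KI against NIC, with 12 and 4 member probes. With all 9 RNA samples in the fit, NIC against normal had 15060, with 11 member probes. NIC against normal gave 2905 on Cy3-labelled samples alone and 3398 without the Cy5 array of normal gland 2. Scaling to 1 spread gave 11250 in KI against normal. KI against NIC gave 1561 after quantile normalization, 1792 with 1 probe per gene and 6028 from KI scanner intensities with loess (4 member probes). In KI against NIC 0 member probes were called on Cy5-labelled samples alone by limma (4 at an unadjusted p under 0.05), where 5.49% of all probes were called. Scaling to 1 spread and quantile normalization each called 1 member probe in KI against NIC, and 7.02% and 3.79% of all probes. Without the KI arrays of the smaller extraction day 1 member probe was called there, and 4.91% of all probes. Leaving out 1 RNA sample gave 0 to 5051 probes and 0 to 6 member probes in NIC against normal (the 0 without either pool, with 9364 and 10592 at an unadjusted p under 0.05), and 821 to 3157 and 0 to 3 in KI against NIC.

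Signs changed 31 times, and 30 of these differences, none beyond 0.29 in size, were called in neither setting. The exception was Dvl2 in KI against normal, −0.14 when scaled to 1 spread. NIC against normal turned to −0.071 for Ctnnb1 probe 1 on Cy5 alone and −0.19 for Btrc when scaled. KI against normal turned to 0.11 and −0.047 for Apc probes 3 and 4 on Cy3 alone, 0.019 for Apc probe 3 with loess, and −0.21 (scaled) and −0.18 (quantile) for Btrc. KI against NIC turned on Cy5 alone to 0.027 for Apc probe 4, −0.054 for Gsk3a and 0.016 for Dvl3, and on Cy3 alone to −0.036 for Ctnnb1 probe 2 and 0.17 for Csnk1a1 probe 2. It turned when scaled to 0.0027 for Csnk1a1 probe 2 and −0.021 for Btrc, after quantile normalization to 0.023 and −0.29 for the same probes, with gene means to −0.21 for Csnk1a1 and −0.073 for Dvl1, and with loess to 0.052 for Dvl2. Leaving out 1 RNA sample, KI against normal ran from −0.078 to 0.044 for Apc probe 3 and −0.025 to 0.091 for Apc probe 4. KI against NIC ran from −0.075 to 0.59 for Gsk3a, −0.026 to 0.60 for Ctnnb1 probe 2, −0.042 to 0.38 for Apc probe 2 and −0.21 to 0.40 for Btrc. For Csnk1a1 it ran from −0.080 to 0.31 at probe 1, −0.11 to 0.035 at probe 2 and −0.49 to 0.085 at probe 3. The cause of these changes was not tested.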
